A study of Homo sapiens with 4 samples.

Results

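The receptors and ligands of platelet-derived growth factor (PDGF), with the proteoglycan gene CSPG4, were followed in the transcriptome of DAOY cells. The 8 genes are PDGFRA, PDGFRB, PDGFRL, PDGFA, PDGFB, PDGFC, PDGFD and CSPG4, matched by symbol among the 20363 genes of the count table. The group was selected on measured values, since PDGFRA was known to be higher with SAG and PDGFRB to be lower in ZNF521 cells, and CSPG4 was known to be lower with SAG. Those 3 differences are therefore given as descriptions with no p-value, and nothing is read from the counts of calls that include them. All 8 genes had a row in the table, and the 7 that reached 10 counts in at least 2 libraries were tested. PDGFB did not reach that level.

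DAOY is an established human medulloblastoma line of cerebellar origin. Cells were controls (CTL) or overexpressed ZNF521, a zinc finger co-factor of transcription, and each kind received either SAG, which activates SMO and so switches on Sonic hedgehog (SHH) signalling, or DMSO, its solvent. The groups are written CTL-DMSO, CTL-SAG, ZNF521-DMSO and ZNF521-SAG below. Each of the 4 is 1 library, so no difference has a replicate check. In the study's methods ZNF521 is carried by a lentiviral vector that also expresses EGFP, transduced cells are sorted for EGFP as a population, and cells are starved before SAG. The series' design text calls the controls WT while a legend of the study gives them the empty vector, so that the effect of ZNF521 and that of transduction cannot be told apart if WT cells were sequenced. The methods also use human and mouse forms of ZNF521, without naming the form in the sequenced cells. The dose of SAG in these libraries is not given in the sources used here.

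PDGFs are secreted dimers that bring receptor chains together at the cell surface. PDGFRA and PDGFRB are receptor tyrosine kinases, which pair with themselves or with each other and then signal through the RAS-MAPK and PI3K-AKT routes. PDGF-A and PDGF-C act mainly through PDGFRA, PDGF-B through both receptors, and PDGF-D mainly through PDGFRB. In the brain PDGFRA and CSPG4 (also called NG2) mark oligodendrocyte progenitors, and PDGFRB and CSPG4 mark pericytes. PDGFRA is also known as a gene that responds to GLI1, a transcription factor that SHH signalling activates.

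Total counts ran from 12294833 to 16314685 per library. Normalized counts are these counts divided by the authors' size factor of the library. The CTL library with DMSO stood apart, with an SD of log2 deviations from the gene mean of 0.274 against 0.126 to 0.143 in the other 3. ZNF521 and GLI1, which check the labels, followed them. ZNF521 stood at 713.7 and 751.1 normalized counts in the CTL libraries and at 2013 and 2072 in the ZNF521 libraries. GLI1 stood at 75.4 and 44.2 with DMSO and at 323.7 and 318.1 with SAG, in CTL and ZNF521 cells. The log2 fold change of GLI1 for ZNF521 was -0.30 (edgeR adjusted p = 0.967). The rise of GLI1 mRNA with ZNF521 that the study reported by RT-qPCR was thus not seen in these libraries. The cerebellar label was met in part: of 10 granule neuron markers, ZIC1, ZIC2 and PAX6 had a mean normalized count of at least 50, while ATOH1 stayed between 0.844 and 1.13 and BARHL1 was at 0 in 3 libraries. Of 10 oligodendrocyte progenitor markers only BCAN reached that mean, and the sum of the list ran from 163.5 to 297.5. Of 10 fibroblast markers 8 reached it, with COL1A1, COL3A1 and VIM among them. Markers of blood cells summed to 21.4 to 28.2 over 7 genes. The 5 endothelial markers summed to 152.3 to 189 and the 6 epithelial ones, nearly all from KRT8 and KRT18, to 12890 to 14800.

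Sequence upstream of the start site is shown for the 3 genes that the comparisons turn on. RefSeq's table of promoters for GRCh38.p14, which is the build hg38 of the counts, held 9 start sites of 5 of the genes, and none was matched for PDGFB, PDGFC or PDGFRL. The 250 bases before each start are printed 5′ to 3′ on the strand of the gene, and capitals mark matches on either strand to 6 motifs. These were GACCACCCA (the GLI consensus), CCACCC (a part of it), GGGCGG (bound by SP1), CCAAT (bound by NF-Y), the TATA box TATAAA and CCCNNGGG (the core of the EBF motif). PDGFRA has 2 starts on chromosome 4, with windows at chr4:54229043-54229292 and chr4:54233710-54233959 on the plus strand. The windows of PDGFRB and CSPG4 lie on the minus strand at chr5:150155846-150156095 and chr15:75712849-75713098.
PDGFRA start 1: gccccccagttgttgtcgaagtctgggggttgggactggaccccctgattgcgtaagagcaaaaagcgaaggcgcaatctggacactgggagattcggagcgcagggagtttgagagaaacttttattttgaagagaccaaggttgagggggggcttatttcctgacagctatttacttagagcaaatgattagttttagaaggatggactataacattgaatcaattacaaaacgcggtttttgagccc
PDGFRA start 2: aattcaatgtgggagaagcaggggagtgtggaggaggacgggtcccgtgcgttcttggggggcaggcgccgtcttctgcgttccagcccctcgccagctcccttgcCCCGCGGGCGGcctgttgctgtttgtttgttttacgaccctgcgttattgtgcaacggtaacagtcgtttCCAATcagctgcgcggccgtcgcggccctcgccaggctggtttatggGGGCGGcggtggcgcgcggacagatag
PDGFRB: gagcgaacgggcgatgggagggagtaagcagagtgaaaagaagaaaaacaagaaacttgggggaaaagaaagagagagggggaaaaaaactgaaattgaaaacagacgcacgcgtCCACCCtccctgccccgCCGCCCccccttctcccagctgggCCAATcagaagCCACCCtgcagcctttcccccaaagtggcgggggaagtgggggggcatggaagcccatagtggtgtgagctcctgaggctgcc
CSPG4: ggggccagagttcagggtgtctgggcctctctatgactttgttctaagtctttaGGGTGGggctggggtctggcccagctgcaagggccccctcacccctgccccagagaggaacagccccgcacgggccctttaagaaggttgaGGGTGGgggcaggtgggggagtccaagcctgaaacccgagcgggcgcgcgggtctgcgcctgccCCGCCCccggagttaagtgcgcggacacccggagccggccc

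The window before the first start of PDGFRA held none of the 6 motifs and 46.8% G and C, while that before the second held GGGCGG at 2 places, the first overlapped by CCCNNGGG, and CCAAT, at 64.0% G and C. The window of PDGFRB held CCACCC at 2 places, and CCAAT and GGGCGG once each, the latter as CCGCCC on the printed strand, and that of CSPG4 held CCACCC at 2 places, printed as GGGTGG, and GGGCGG once, printed as CCGCCC. Including the 50 bases after each start, the GLI consensus was in 0 of the 9 windows of the group and in 0.236% of the 35116 windows of the table. GGGCGG was in 8 of the 9 windows and in 45.0% of the table, CCACCC in 5 and 34.3%, CCAAT in 3 and 34.6%, CCCNNGGG in 1 and 19.1%, and TATAAA in 0 and 11.5%. PDGFA alone supplied 4 of the 9 windows, each with GGGCGG, so these are counts of windows and not of genes. An absent motif says only that these letters were not in these windows.

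PDGFRA, the alpha receptor, lies on the plus strand of chromosome 4 of hg38, from 54229280 to 54298245. It was low in all cells and higher with SAG in both kinds. Its normalized read count was 33.2 in CTL-DMSO, 46.3 in ZNF521-DMSO, 101.5 in CTL-SAG and 111.4 in ZNF521-SAG. Both SAG libraries were thus above both DMSO libraries, and libraries of the same treatment were neighbours in that order. How many of all genes are ordered by treatment or by cells in this way was not computed. Such an order, here and below, is a description only. SAG over DMSO was a ratio of 3.06 in CTL cells (95% interval 2.03 to 4.71) and of 2.41 in ZNF521 cells (1.70 to 3.45). These exact intervals, here and below, cover counting error of 2 libraries only. The 2 intervals overlap, and the difference between CTL and ZNF521 cells was not tested, since no replicate exists. Over all 4 libraries the log2 fold change for SAG was 1.42 (standard error 0.248). For ZNF521 it was 0.26 (standard error 0.245, edgeR adjusted p = 0.987), with ratios of 1.40 in DMSO (0.871 to 2.26) and 1.10 in SAG (0.833 to 1.45) that both include no difference. The counts behind these values are small, at 33, 45, 90 and 132 reads. A gene annotated in GENCODE that runs through into PDGFRA shares 1533 of its exon bases on the same strand, and how the authors' counting treated such reads is not given in the sources used here.

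**Figure D1:**
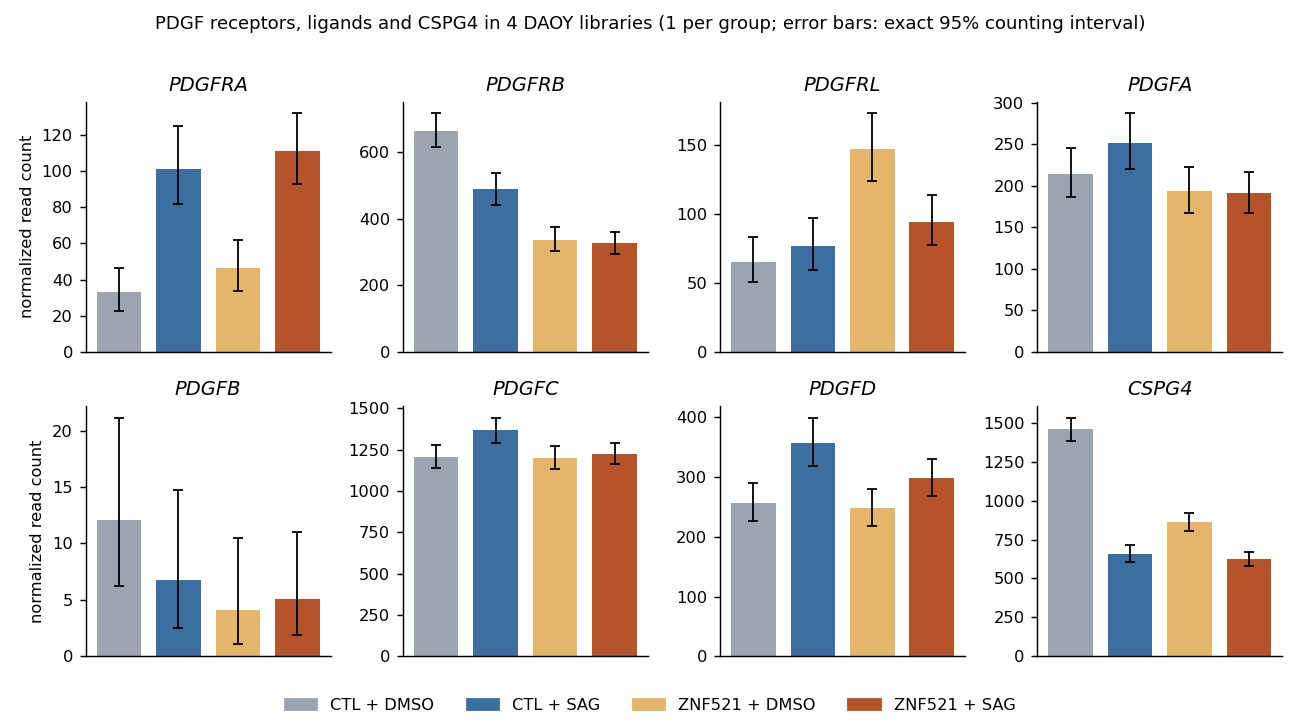
Normalized read counts (vertical axes, each from 0) of the 8 genes in the 4 DAOY libraries, 1 bar per library, with exact 95% counting intervals as error bars and no replicates. PDGFRA stood at 33.2 and 46.3 with DMSO and at 101.5 and 111.4 with SAG, PDGFRB was lower in both ZNF521 libraries, and CSPG4 was highest in CTL-DMSO.

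PDGFRB, the beta receptor, lies on the minus strand of chromosome 5, from 150113839 to 150155872. It was lower in ZNF521 than in CTL cells under both treatments. Its normalized count was 664.4 in CTL-DMSO, 488.3 in CTL-SAG, 337.5 in ZNF521-DMSO and 326.5 in ZNF521-SAG. The 2 ZNF521 libraries lay within counting error of each other (ratio 0.967, interval 0.833 to 1.12). ZNF521 cells had 0.508 times the CTL level in DMSO (0.444 to 0.581) and 0.669 times in SAG (0.581 to 0.769). Over all 4 libraries the log2 fold change for ZNF521 was -0.79 (standard error 0.170), and it was -0.55 when the CTL library with DMSO was left out and the cells were the only factor. For SAG the log2 fold change was -0.25 (standard error 0.169, edgeR adjusted p = 0.559). That value rested on CTL cells, where the ratio was 0.735 (0.650 to 0.831), and it turned to 0.25 without the CTL library with DMSO. Of 10 markers of pericytes and smooth muscle in the table, 8 had a mean of at least 50 normalized counts, and the 10 summed to 3206 in CTL-DMSO and to 2494 to 2602 in the other libraries. The list was not uniform, since 3 of the 10 (ANPEP, NOTCH3 and MYH11) were highest in CTL-DMSO and 5 (RGS5, KCNJ8, ABCC9, DES and CNN1) were lowest there. RGS5, at a mean of only 24.5, stood at 15.1 in CTL-DMSO and at 21.6 to 35.4 in the others. NOTCH3 stood at 607.1 in CTL-DMSO and at 228.9 to 380.7 in the others, and ANPEP at 565.9 and at 289.1 to 338.3. The part of these genes in the values of PDGFRB was not tested, and in bulk RNA fewer cells of a type and less RNA per cell cannot be told apart.

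**Figure D2:**
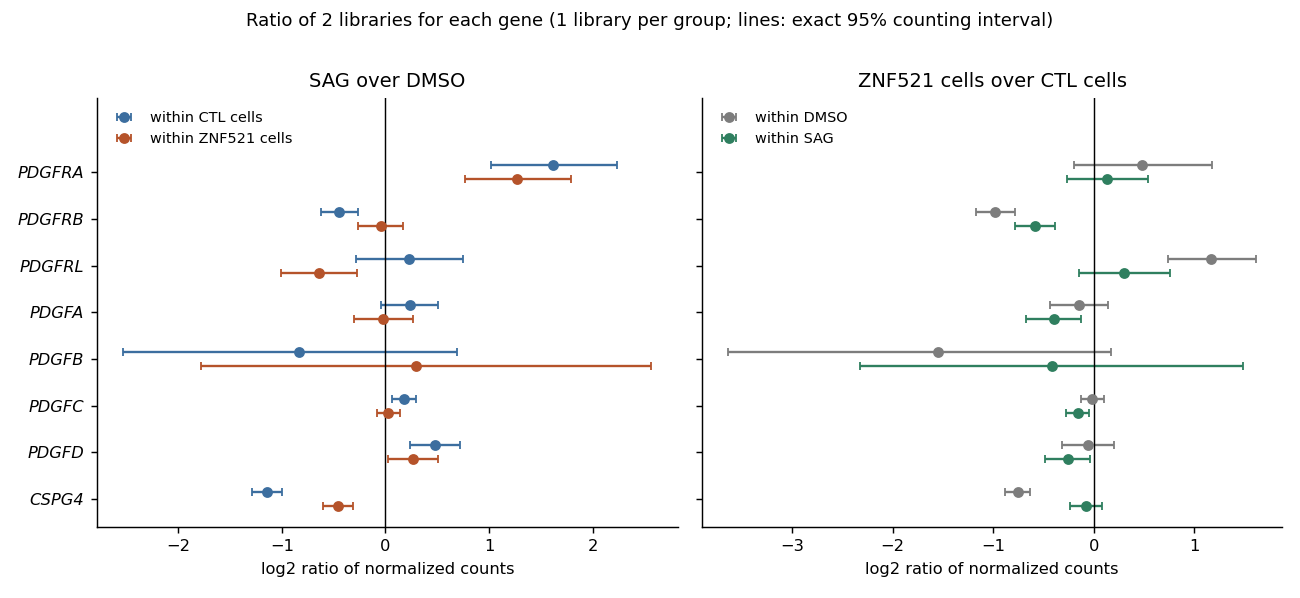
Log2 ratio of the normalized counts of 2 libraries (horizontal axes) for each gene, with SAG over DMSO on the left within CTL and ZNF521 cells, and ZNF521 over CTL cells on the right within DMSO and SAG. Points are single ratios and lines exact 95% counting intervals. PDGFRA lay right of 0 for SAG in both kinds of cells, PDGFRB left of 0 for ZNF521 under both treatments, and PDGFRL on opposite sides of 0 for SAG.

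Levels of different genes were compared per kilobase of exon, scaled to the same total in every library (TPM). On this scale PDGFRB was the more abundant kinase receptor in every library, at 29.6 TPM in CTL-DMSO, 20.7 in CTL-SAG and 14.0 in each ZNF521 library. PDGFRA was at 1.10 and 1.44 TPM with DMSO and at 3.21 and 3.56 TPM with SAG, in CTL and ZNF521 cells. The share of PDGFRA in the sum of both receptors was 3.60% in CTL-DMSO, 9.30% in ZNF521-DMSO, 13.4% in CTL-SAG and 20.3% in ZNF521-SAG. Within a library this share needs no scaling between libraries. The ratio of PDGFRB to PDGFRA per length was 26.8 in CTL-DMSO (18.9 to 39.3) and 3.92 in ZNF521-SAG (3.21 to 4.82). It was 9.75 in ZNF521-DMSO (7.13 to 13.6) and 6.44 in CTL-SAG (5.12 to 8.17). The intervals of the last 2 overlap and those of the first 2 overlap with neither. With the longest transcript as length the share of PDGFRA was 4.27% to 23.4%, in the same order of libraries. These shares combine the differences by which the group was chosen and are given as a description.

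PDGFRL encodes a secreted protein that resembles the outer part of a PDGF receptor and has no kinase. It lies on the plus strand of chromosome 8, from 17576433 to 17644071. Its normalized count was 65.3 in CTL-DMSO, 76.7 in CTL-SAG, 147.1 in ZNF521-DMSO and 94.5 in ZNF521-SAG. Both ZNF521 libraries were above both CTL libraries, which was the opposite order to that of PDGFRB. The log2 fold change for ZNF521 was 0.73 (standard error 0.249, unadjusted p = 0.0117, edgeR adjusted p = 0.888). The ratio was 2.25 in DMSO (1.67 to 3.07) and 1.23 in SAG (0.904 to 1.69), so that the second alone was within counting error. With SAG, PDGFRL was higher in CTL cells, by a ratio of 1.17 (0.823 to 1.68), and lower in ZNF521 cells, by a ratio of 0.642 (0.497 to 0.828). The log2 fold change for SAG over both was -0.26 (standard error 0.247, edgeR adjusted p = 0.706) and turned to 0.39 without the ZNF521 library with DMSO. PDGFRL shares 277 exon bases with MTUS1 on the opposite strand, and the strand setting of the counting is not given in the sources used here. MTUS1 stood at 204.1 to 320.6 normalized counts, lowest in CTL-DMSO and highest in ZNF521-SAG.

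**Figure D3:**
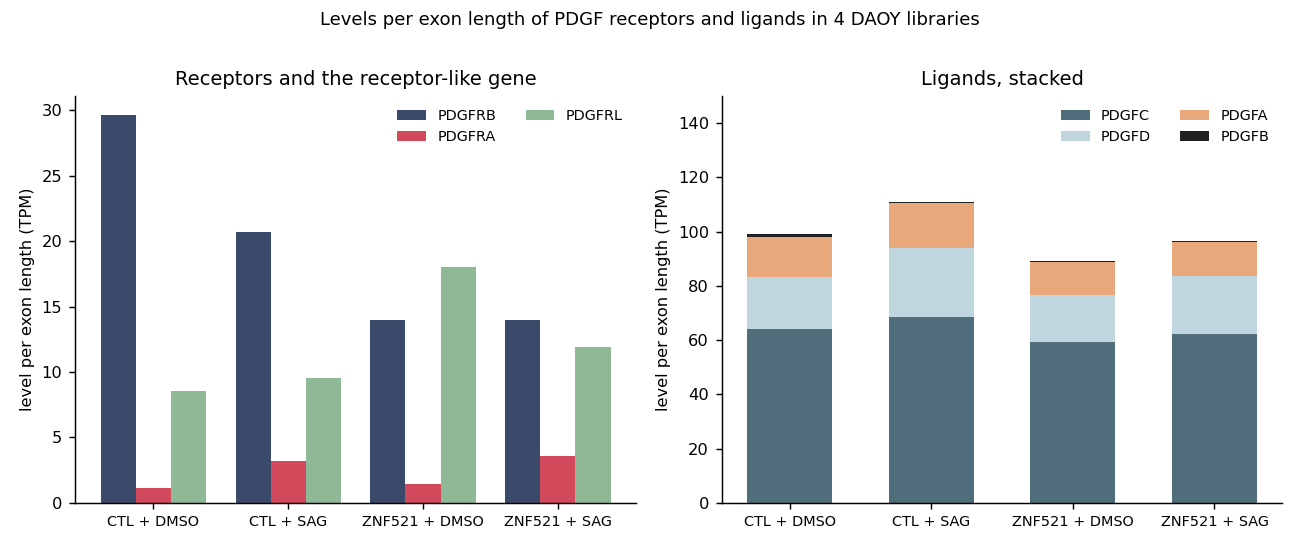
Levels per exon length in TPM (vertical axes, from 0) in the 4 libraries, with PDGFRB, PDGFRA and PDGFRL side by side on the left and the 4 PDGF ligands stacked on the right, and no replicates. PDGFRB was the highest of the 3 in both CTL libraries and in ZNF521-SAG, and PDGFC made up 61.8% to 66.3% of the ligands.

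All 4 PDGF ligand genes were read, with PDGFC the most and PDGFB the least abundant in every library. PDGFC (chromosome 4, 156760454 to 156971799) took 61.8% to 66.3% of the summed ligand TPM, PDGFD (chromosome 11, 103907189 to 104164379) 19.3% to 22.8%, PDGFA (chromosome 7, 497258 to 520296) 13.1% to 15.0% and PDGFB (chromosome 22, 39223359 to 39244982) 0.342% to 0.971%. With the longest transcript as length PDGFA was above PDGFD in 3 libraries (17.3 against 14.1 TPM in CTL-DMSO) and below it in ZNF521-SAG (14.8 against 15.7 TPM), so the order of these 2 depends on the length used. The sum over exon lengths was 99.0 TPM in CTL-DMSO, 111 in CTL-SAG, 89.3 in ZNF521-DMSO and 96.7 in ZNF521-SAG. The ligands of PDGFRA, the scarcer receptor, were thus the more abundant ones, while the transcript of PDGF-B, which binds both receptors, was nearly at the floor.

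PDGFD, whose product acts mainly on PDGFRB, was higher with SAG in both kinds of cells. Its normalized count was 257.3 in CTL and 248.0 in ZNF521-DMSO, and 357.5 in CTL and 298.7 in ZNF521-SAG. The ratios were 1.39 in CTL cells (1.17 to 1.64) and 1.20 in ZNF521 cells (1.02 to 1.42). The log2 fold change for SAG was 0.37 (standard error 0.167, unadjusted p = 0.0449, edgeR adjusted p = 0.428). PDGFD did not reach an unadjusted p of 0.05 by DESeq2, nor by edgeR with library size alone or with a filter on mean count (50). PDGFC was at 1198 to 1222 in 3 libraries and at 1365 in CTL-SAG. Its log2 fold change was 0.10 for SAG (standard error 0.147, edgeR adjusted p = 0.809), and -0.10 for ZNF521. PDGFA was at 214.1 in CTL-DMSO, 251.5 in CTL-SAG, 193.4 in ZNF521-DMSO and 190.7 in ZNF521-SAG. Its log2 fold change was -0.29 for ZNF521 (standard error 0.176, edgeR adjusted p = 0.957), with both ZNF521 libraries below both CTL libraries. PDGFB had 12, 6, 4 and 6 reads in CTL-DMSO and with SAG and in ZNF521-DMSO and with SAG. At this depth its ratios had intervals as wide as 0.292 to 5.93, and no difference was detectable.

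CSPG4 encodes a large chondroitin sulphate proteoglycan of the cell surface, which can bind PDGF-AA and collagen VI and carries signals to integrins. It lies on the minus strand of chromosome 15, from 75674322 to 75712848. Its normalized count was 1458 in CTL-DMSO, 862.3 in ZNF521-DMSO, 659.7 in CTL-SAG and 626.0 in ZNF521-SAG. Both SAG libraries were below both DMSO libraries, which was the reverse of PDGFRA. The ratio for SAG was 0.453 in CTL cells (0.410 to 0.499) and 0.726 in ZNF521 cells (0.657 to 0.802), and over all 4 libraries the log2 fold change was -0.80 (standard error 0.181). It was -0.43 when the CTL library with DMSO was left out and SAG was the only factor. For ZNF521 the log2 fold change was -0.43 (standard error 0.181, unadjusted p = 0.0322, edgeR adjusted p = 0.907). This came from the DMSO pair, with a ratio of 0.592 (0.543 to 0.645), against 0.949 in SAG (0.850 to 1.06), and the value turned to 0.18 without the CTL library with DMSO. Markers of oligodendrocyte progenitors other than PDGFRA and CSPG4 also had their highest sum in that library, at 297.5 against 163.5 to 195.5. Of these 10 markers 7 were highest there, but only BCAN had a mean of at least 50 normalized counts. The share of all genes highest in that library, which stood apart, was not computed, so nothing is read from this count. The sum of fibroblast markers was highest there too, at 77210 against 49120 to 54770, but through 4 of 10 (COL1A1, COL1A2, COL3A1 and DCN), while LUM and PRRX1 were lowest there. Their part in the values of CSPG4 was not tested. GENCODE annotates 9 pseudogenes of CSPG4, of which 0 have a row in the table, and an antisense gene over 563 of its exon bases, so that reads of near-identical copies or of the other strand may be missing from or added to its count.

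None of the 7 tested genes passed an adjusted p of 0.05, which 6 of all 14970 genes (0.0401%) did for SAG and 1 (0.00668%) did for ZNF521, by edgeR's quasi-likelihood test. At an unadjusted p of at most 0.05, 2 of the 7 were higher with SAG (PDGFRA and PDGFD), where 6.21% of all genes were called, and 1 was lower (CSPG4), where 5.12% were. For ZNF521, 1 was higher (PDGFRL), where 2.36% of all genes were called, and 2 were lower (PDGFRB and CSPG4), where 3.11% were. The group was chosen for some of these values, so nothing is read from the counts. By DESeq2 0 of the 7 passed the adjusted threshold in either comparison, and 2 for SAG and 1 for ZNF521 had an unadjusted p of at most 0.05. By limma with a trend 2 passed the adjusted threshold for SAG and 1 for ZNF521, and since these are the 3 differences known when the genes were chosen, this only restates the choice. The median log2 fold change of the 7 was 0.10 for SAG and -0.17 for ZNF521, against 0.00055 and -0.0034 over all genes.

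The GC content of transcripts went with SAG in both kinds of cells, and with ZNF521 within DMSO. The genes of the group lie on both sides of the middle class. Over 5 equal classes of GC content, PDGFRA (42.9%), PDGFC (43.7%) and PDGFD (41.2%) were in class 2, PDGFRB (57.5%), PDGFRL (52.2%) and PDGFA (57.6%) in class 4 and CSPG4 (63.5%) in class 5. Genes of class 2 had a median log2 ratio for SAG of 0.175 in CTL and 0.0879 in ZNF521 cells, and genes of class 5 one of -0.286 and -0.173. For ZNF521 over CTL cells the medians of classes 2 and 5 were 0.0933 and -0.131 in DMSO, and 0.00252 and -0.0297 in SAG. Less the median of its class, the log2 ratio of PDGFRA for SAG was 1.44 in CTL and 1.18 in ZNF521 cells, and that of CSPG4 -0.86 and -0.29. For PDGFD these values were 0.30 and 0.18. For PDGFRB under ZNF521 they were -0.89 in DMSO and -0.58 in SAG. These values had the sign they had before. Those of CSPG4 for SAG shrank beyond its counting intervals, which were -1.285 to -1.004 in CTL and -0.6065 to -0.3177 in ZNF521 cells. For SAG within ZNF521 cells 3 small log2 ratios changed sign, from -0.048 to 0.026 for PDGFRB, from -0.021 to 0.053 for PDGFA and from 0.029 to -0.059 for PDGFC.

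Genes whose profile over the 4 libraries lay nearest to that of PDGFRA, by Euclidean distance of centred log2 normalized counts among 12093 genes with a mean of at least 50, were SLC8A3, a sodium/calcium exchanger (distance 0.351), SCN9A, a sodium channel (0.503), VSTM2L (0.582), CARD16 (0.604) and NPR3, the clearance receptor of natriuretic peptides (0.611). SLC8A3 stood at 265.4 and 295.3 with DMSO and at 568.4 and 716.3 with SAG, in CTL and ZNF521 cells. Nearest to PDGFRB were the keratin KRT75 (0.0313), C16orf74 (0.109), ADAMTS2, a procollagen protease (0.118), AGMAT (0.125) and the kinesin KIF26B (0.131). KRT75 stood at 282.5 and 207.5 in CTL cells and at 139.9 and 139.2 in ZNF521 cells, with DMSO and SAG. Nearest to CSPG4 were HES4, a repressor of the HES family (0.0446), SDK2, an adhesion protein (0.142), VAMP1 (0.164), GLTPD2 (0.166) and FAM171A2 (0.175). HES4 stood at 457.4 and 209.8 in CTL cells and at 270.6 and 190.7 in ZNF521 cells, with DMSO and SAG. With 4 libraries such likeness is a description of these profiles.

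Proteins that bind PDGFs or their receptors, or that process the ligands, were mostly lower in both comparisons. Of 14 tested, 10 were lower with SAG and 11 with ZNF521, with medians of -0.17 and -0.10, and at an unadjusted p of at most 0.05 there were 2 lower for SAG (5.12% of all genes), 5 lower for ZNF521 (3.11%) and 0 higher for SAG (6.21%) or ZNF521 (2.36%). Of all 14970 genes tested, 7497 were higher and 7473 lower with SAG, and 7393 were higher and 7577 lower with ZNF521. The counts of the lists below stand against the same shares and the same split. LRP1, an endocytic receptor that associates with PDGFRB, stood at 5619 normalized counts in CTL-DMSO and at 1922 to 2302 in the other 3 libraries. HSPG2, the proteoglycan perlecan, stood at 1724 there and at 704.5 to 778.9 elsewhere. For both genes the CTL library with DMSO alone was apart. THBS1, a thrombospondin, was at 2276 and 1547 in CTL cells and at 1045 and 1203 in ZNF521 cells, with DMSO and SAG, a log2 fold change of -0.75 for ZNF521 (edgeR adjusted p = 0.612). A2M, a plasma protein that binds PDGF, was at 79.4 and 107.1 in CTL and at 47.3 and 55.7 in ZNF521 cells. NRP2, a co-receptor of the neuropilin family, was at -0.49 on the log2 scale for ZNF521. Without the CTL library with DMSO the median of the list was -0.030 for SAG and turned to 0.054 for ZNF521.

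Downstream of the receptors the transcripts moved little. Of 30 tested genes whose proteins dock on activated PDGF receptors, 16 were higher and 14 lower with SAG and 13 were higher and 17 lower with ZNF521, with medians of 0.0063 and -0.019. At an unadjusted p of at most 0.05 these were SOS2, an exchange factor of RAS (0.37), for SAG, and YES1, a kinase of the SRC family (0.40), and PIK3CB, a catalytic subunit of PI3K (-0.51), for ZNF521. In all 3 CTL-DMSO stood apart. SOS2 was at 381.0 normalized counts there and at 513.5 to 579.6 elsewhere, YES1 at 409.1 against 672.1 to 705.3, and PIK3CB at 428.2 against 219.2 to 248.1. The median for SAG was near 0 and changed sign under several alternatives, to -0.036 at the lowest, without ZNF521-DMSO. In the RAS-MAPK and AKT chain, 9 of 16 were higher in each comparison, with medians of 0.029 and 0.014. RPS6KA3, a kinase downstream of MAPK, was at 0.39 for SAG, and for ZNF521 no gene of the chain reached an unadjusted p of 0.05.

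Of 25 tested genes that restrain PDGF receptors or their signal, 18 were higher with SAG and 13 with ZNF521, with medians of 0.13 and 0.010. NEDD4, a ubiquitin ligase, was at 0.47 for SAG, with 383.0 normalized counts in CTL-DMSO and 504.2 to 639.5 elsewhere. DUSP6, a phosphatase of ERK, was at 0.39 for ZNF521 (edgeR adjusted p = 0.893), with normalized counts of 609.1 and 807.4 in CTL and 865.4 and 987.9 in ZNF521 cells. PTPN12, a tyrosine phosphatase, was at -0.49, with 772.0 in CTL-DMSO and 409.5 to 483.8 elsewhere. The median for ZNF521 lay between -0.089 and 0.11 with a library left out. GAS1, a growth arrest protein that is also a co-receptor of SHH, was lower in both comparisons and went from 1018 in CTL-DMSO to 442.1 in ZNF521-SAG. Of 27 early response genes of growth factors, 18 were lower in each comparison, with medians of -0.085 for SAG and -0.032 for ZNF521, the latter at 0.0017 without CTL-DMSO and -0.13 without CTL-SAG. EGR1 (-0.66), NR4A1 (-0.52) and KLF4 (-0.42) were lower with SAG and PHLDA1 (0.35) was higher at an unadjusted p of at most 0.05, and none was past it for ZNF521. EGR1 stood at 436.3 and 266.5 with DMSO and at 180.4 and 253.1 with SAG, in CTL and ZNF521 cells.

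Among 18 tested partners of CSPG4, 11 were higher with SAG and 11 were lower with ZNF521, with medians of 0.11 and -0.096, the latter turning to 0.012 without CTL-SAG and to 0.078 without ZNF521-DMSO. ITGB3, the integrin beta chain that pairs with the alpha V chain, stood at 124.6 and 61.7 with DMSO and at 192.8 and 187.3 with SAG, in CTL and ZNF521 cells. Its log2 fold change for SAG was 1.08 (standard error 0.241, edgeR adjusted p = 0.391), opposite in sign to that of CSPG4. ITGA2 (0.38), another integrin chain, and MPDZ (0.35), a scaffold with PDZ domains, were higher with SAG too, ITGA2 mostly through ZNF521-SAG (921.3 against 589.0 to 649.6), and TNK2, a kinase, was lower (-0.39). For ZNF521, COL6A1 (-0.52) and COL6A2 (-0.48), chains of the collagen VI that CSPG4 binds, and ITGA3 (-0.40) had an unadjusted p of at most 0.05. ITGA3 stood at 1265 in CTL-DMSO and at 790.5 to 855.9 elsewhere. COL6A1 stood at 11150 in CTL-DMSO, 7481 in CTL-SAG and 6525 and 6344 in ZNF521 cells. No gene of these lists passed an adjusted p of 0.05 in either comparison by edgeR.

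**Figure D4:**
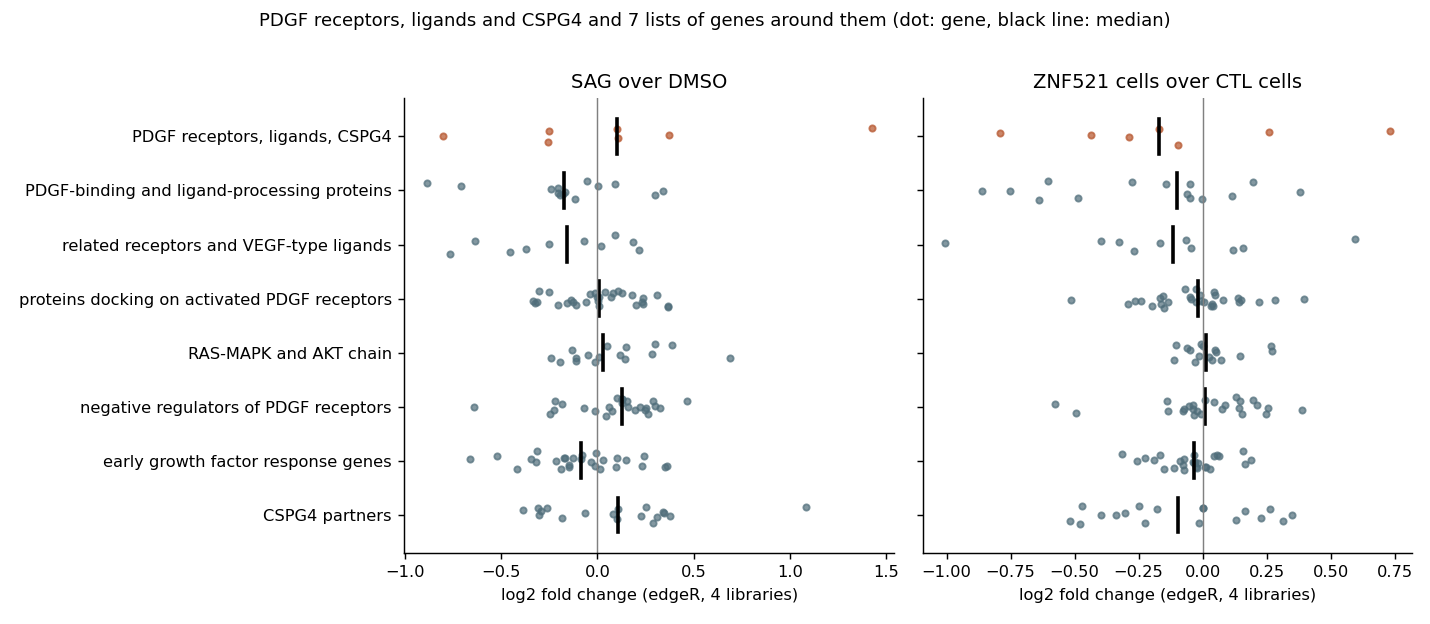
Log2 fold changes over the 4 libraries by edgeR (horizontal axes), for SAG on the left and ZNF521 on the right, with 1 dot per tested gene and a black line at the median of each list. The 7 tested genes of the PDGF group spread from -0.80 (CSPG4) to 1.42 (PDGFRA) for SAG, while the medians of the 7 lists lay between -0.17 and 0.13.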

How the data were processed

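RNA of DAOY cells was read in 4 libraries, 1 for each combination of CTL or ZNF521 cells with DMSO or SAG. Per the submitters' processing notes, the authors used STAR 2.7.0e with hg38 for the paired reads, and the first deposited table holds raw counts of 20363 genes. The second deposited table holds a normalized signal, the counts scaled by the authors with a median-of-ratios size factor (DESeq2) in each library, for 19860 genes. The 503 others have a total count of at most 1. The labels describe strand-specific libraries, poly-A enriched and depleted of ribosomal RNA. The annotation and strand setting of the counting are not given in the sources used here.

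Genes that reached 10 counts in 2 or more libraries (14970) were tested by edgeR 4.0.16 in R 4.3.3 (TMM, glmQLFit and glmQLFTest), with treatment and cells as additive terms, as the study also pairs its libraries, and Benjamini-Hochberg adjustment over all of them. The fit leaves 1 residual degree of freedom, which is the difference of the SAG effect between CTL and ZNF521 cells. It is moderated by a prior of 11.7 degrees of freedom taken over the tested genes. The p-values therefore use that difference as error, and they hold no spread between replicates. Standard errors are the log2 fold change over the square root of F. The fit was tested on simulated data. Ratios of 2 libraries use the authors' size factors and exact 95% Clopper-Pearson intervals. Bars of error for 1 library are exact Poisson intervals. Lengths, positions and GC content came from GENCODE release 44 for hg38 and covered 19803 genes (97.2%). Profiles were compared on log2(normalized count + 1). Alternatives were RLE factors, library size alone, no filter, a filter on mean count (50), limma 3.58.1 on log2(normalized count + 1), DESeq2 1.42.0, 1 factor alone, and each library left out.

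The genes of the group and the lists were chosen with earlier results of these data known. Named genes were the 8 of the group, the label checks ZNF521 and GLI1, up to 4 genes of smallest unadjusted p per list and comparison and the 5 nearest profiles, both from a mean of 50 normalized counts upward, genes that overlap the group, and markers at or near 0. Other markers named, among them COL1A1 and RGS5, were picked after their values were seen. Some items that this rule names are not reported here.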

Additional observations from a re-analysis of the deposited data

Results flagged for a closer look

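For 3 of the genes SAG went opposite ways in CTL and ZNF521 cells. Each direction rests on 1 pair of libraries, and the difference between the 2 kinds of cells was not tested. For PDGFRL the ratio of SAG over DMSO was 1.17 in CTL cells (0.823 to 1.68) and 0.642 in ZNF521 cells (0.497 to 0.828). For PDGFA it was 1.17 in CTL cells (0.969 to 1.42) and 0.986 in ZNF521 cells (0.809 to 1.20), and both intervals include no difference. Less the median of its class of GC content, the log2 ratio of PDGFA was 0.41 and 0.053, no longer in opposite directions. For PDGFB it was 0.561 in CTL cells (0.173 to 1.61) and 1.23 in ZNF521 cells (0.292 to 5.93), from 4 to 12 reads per library.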

How the results depend on the processing

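Of 154 log2 fold changes of the 7 tested genes under other settings or with 1 library left out, 147 kept their direction, and 13 were past an adjusted p of 0.05. The 7 that turned did so with a library left out, in fits with 1 factor and an unbalanced other one, where the lone sample of a group is assumed to vary like the rest. Without the CTL library with DMSO, PDGFRB turned to 0.25 for SAG and PDGFRA to -0.33 and CSPG4 to 0.18 for ZNF521. Without the ZNF521 library with SAG, PDGFRA turned to -0.54 for ZNF521. Without the CTL library with SAG, PDGFA turned to -0.097 for SAG and PDGFD to 0.075 for ZNF521. Without the ZNF521 library with DMSO, PDGFRL turned to 0.39 for SAG. With 1 library left out PDGFRA ranged from 1.20 to 1.68 for SAG and from -0.54 to 1.26 for ZNF521, CSPG4 from -1.19 to -0.43 and from -0.99 to 0.18, and PDGFRB from -0.73 to 0.25 and from -1.02 to -0.55, and the cause was not tested. PDGFRL ranged from -0.77 to 0.39 and from 0.41 to 1.04, PDGFA from -0.097 to 0.30 and from -0.38 to -0.17, PDGFC from 0.022 to 0.18 and from -0.17 to -0.013, and PDGFD from 0.24 to 0.50 and from -0.38 to 0.075. At the unadjusted threshold of 0.05, the genes of the group numbered 3 for ZNF521, 1 by DESeq2 and from 1 to 4 with a library left out, and for SAG they numbered 3 and from 2 to 4. The number of all genes past the adjusted threshold was 6 for SAG and 1 for ZNF521, but 223 and 100 with no filter, 196 and 68 by limma, 7 and 1 by DESeq2, and 0 and 1 with the factor alone. With a library left out it ranged from 3 to 4584 for SAG and from 0 to 2341 for ZNF521. TMM moved none of 32 ratios beyond its counting interval, and subtracting the GC class median, a setting chosen after the data were seen, moved 4 of 28. Those moved were CSPG4 for SAG in both kinds of cells and for ZNF521 in DMSO, and PDGFC for SAG in CTL cells. Levels per longest transcript differed by more than counting error in 20 of 32 values. Of 154 medians of lists 13 moved by 0.1 or more. The labels give no replicate numbers to pair by, and the fit pairs libraries through the other factor. Without that pairing, with the factor alone, the genes at the unadjusted threshold numbered 3 for SAG and 2 for ZNF521. With 12294833 to 16314685 counts and 1 library per group, depth limits PDGFB and PDGFRA most.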

Other observations

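Relatives of the PDGF receptors and ligands were read as well. Of 10 tested genes for related receptors, their ligands and ligands of the VEGF type, 6 were lower with SAG and 7 with ZNF521. The medians were -0.16 and -0.12, and no gene of the list passed an adjusted p of 0.05 by edgeR. The median for ZNF521 turned to 0.044 without CTL-DMSO and was -0.28 without CTL-SAG, and that for SAG was -0.027 with no filter. At an unadjusted p of 0.05, 3 were lower for SAG, and 1 was higher and 2 were lower for ZNF521. FLT1, a receptor of VEGF, stood at 248.3 and 224.4 normalized counts in CTL cells and at 359.1 and 359.4 in ZNF521 cells, with DMSO and SAG, a log2 fold change of 0.59 for ZNF521 (standard error 0.167, edgeR adjusted p = 0.679). PGF, a ligand of FLT1, was at 620.2 and 634.9 in CTL cells and at 455.8 and 504.5 in ZNF521 cells, so that receptor and ligand went opposite ways in both treatments. FLT4, a receptor of VEGF-C and VEGF-D, was at 387.0 and 375.6 with DMSO and at 280.8 and 276.7 with SAG, in CTL and ZNF521 cells, a log2 fold change of -0.45 for SAG. CSF1, the ligand of the related receptor CSF1R, stood at 1457 in CTL-DMSO and at 906.1 to 1067 in the other libraries.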
